A study of Mus musculus with 8 samples.

Results

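Transcripts of the cytochrome P450 (CYP) families 1 to 3 were followed in the jejunal mucosa of mice with and without the free fatty acid receptor FFA2 in adipocytes. Members were all genes whose whole symbol is Cyp1, Cyp2 or Cyp3, a single subfamily letter and a gene number, with pseudogenes left out. This gave 58 genes of the 56980 gene identifiers in the counts. Genes named otherwise were left out, among them Cyp3a41a and Cyp3a41b, which end in a letter, and Cyp2ab1, with a longer subfamily name. None of these had a count in any library. The rule uses names alone, though it was set with earlier results of these data known.

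CYP enzymes are heme proteins of the endoplasmic reticulum that insert an oxygen atom into their substrates, using electrons passed on by the reductase Por. Families 1 to 3 hold most of the enzymes that act on drugs and other foreign compounds, and several also oxidize arachidonic acid, steroids and bile acids. The small intestine is the first organ in which swallowed compounds meet these enzymes, which are concentrated in villus enterocytes. Many of the genes are switched on by ligand-activated receptors, among them Ahr (for family 1), Nr1i3 or CAR (for Cyp2b) and Nr1i2 or PXR (for Cyp3a).

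The 2 genotypes were FFA2 fl/fl mice, which carry floxed Ffar2 alleles (the floxed controls), and Adipoq-F2-KO mice, which carry the same alleles together with a Cre transgene under the adiponectin promoter, so that the deletion is aimed at adipocytes and not at the intestine. All were male, littermates of the other genotype and housed together. At 12 weeks of age both genotypes were moved from chow to a Western diet with 10% fructooligosaccharides for 2 weeks in thermoneutral housing, and jejunal mucosa was scraped for poly-A RNA sequencing. There were 4 libraries per genotype. All values come from mixed mucosa, in which fewer cells of a type and less RNA per cell cannot be told apart.

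Total counts ranged from 6007654 to 21712776 per library, and floxed library 3 and Adipoq-F2-KO libraries 3 and 4 were the 3 shallow ones, at 6007654 to 6541595 counts. Ffar2 itself was barely counted, at 2 to 18 raw counts per floxed library and 3 to 13 per Adipoq-F2-KO library, and does not check a deletion made in adipocytes. All 15 villus enterocyte markers were detected, and their summed normalized counts lay between 982061 and 1082740 in floxed controls and between 968122 and 1089500 in Adipoq-F2-KO mice. Smooth muscle markers varied far more, from 287 to 23045 summed normalized counts in floxed controls and from 535 to 8037 in Adipoq-F2-KO mice. Because these CYP genes are best known from liver, 10 hepatocyte markers were checked as well. Of these, 2 were detected and 3 (Ahsg, Fgb and Mup3) had no count in any library, and the albumin gene Alb had 0 to 4 raw counts per library. The sum over the hepatocyte markers was 15.5 to 21.6 normalized counts in floxed controls and 10.0 to 35.7 in Adipoq-F2-KO mice.

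A member was called detected when more than 3 raw counts were found in at least 4 libraries, and it was tested when at least 10 counts were found in at least 4 libraries. By these limits 23 members were tested, 8 were detected but too low to test, 18 lay under the detection limit and 9 had no count at all. The 58 members together took 0.230% to 0.433% of all counts in a library.

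Of the 7 Cyp3a members, 6 were detected and 5 tested (Cyp3a11, Cyp3a13, Cyp3a25, Cyp3a57 and Cyp3a59). Of the 15 Cyp2c genes, 9 were detected and 8 tested (Cyp2c23, Cyp2c29, Cyp2c38, Cyp2c55, Cyp2c65, Cyp2c66, Cyp2c67 and Cyp2c68). Cyp2b gave 2 tested genes (Cyp2b10 and Cyp2b23) of 5, Cyp2d gave 2 (Cyp2d22 and Cyp2d26) of 8, and Cyp2j gave 2 (Cyp2j6 and Cyp2j9) of 8. The single-gene subfamilies Cyp2r, Cyp2s, Cyp2t and Cyp2u each had their 1 gene tested, namely Cyp2r1, Cyp2s1, Cyp2t4 and Cyp2u1.

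Detected but untested were Cyp1b1, Cyp2b13, Cyp2c70, Cyp2d9, Cyp2d11, Cyp2e1, Cyp2j8 and Cyp3a44, with 25 to 95 raw counts each over the 8 libraries. Cyp2e1, the ethanol-oxidizing enzyme, had 4, 6, 18 and 3 raw counts in floxed controls and 5, 3, 14 and 15 in Adipoq-F2-KO mice. The 3 shallow libraries (floxed 3, Adipoq-F2-KO 3 and 4) were the high ones, at 37.6, 28.0 and 28.2 normalized counts, while the other 5 had 1.86 to 3.95. Summed adipocyte markers were high in the same 3 libraries, at 337, 158 and 113 normalized counts against 4.85 to 12.4 in the other 5, and their part in the Cyp2e1 values was not tested.

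No Cyp1a gene was detected. Cyp1a1, the classical target of Ahr, had 3, 1, 0 and 2 raw counts in floxed controls and 1, 0, 0 and 0 in Adipoq-F2-KO mice, and Cyp1a2 had none. Ahr itself was present, at 205 ± 51.3 normalized counts in floxed controls and 230 ± 23.3 in Adipoq-F2-KO mice (SD, n = 4 each). The other 17 members under the limit were Cyp2a4, Cyp2a12, Cyp2c39, Cyp2c54, Cyp2c69, Cyp2d10, Cyp2d34, Cyp2d40, Cyp2f2, Cyp2g1, Cyp2j5, Cyp2j7, Cyp2j11, Cyp2j12, Cyp2j13, Cyp2w1 and Cyp3a16. They had 1 to 25 raw counts each in all 8 libraries together. Besides Cyp1a2, the members without a count were Cyp2a5, Cyp2a22, Cyp2b9, Cyp2b19, Cyp2c37, Cyp2c40, Cyp2c50 and Cyp2d12. A count of 0 over the 108278904 counts of all libraries allows up to 0.0277 CPM, with counting error the only error covered, since the reads carried no molecular identifiers.

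**Figure D1:**
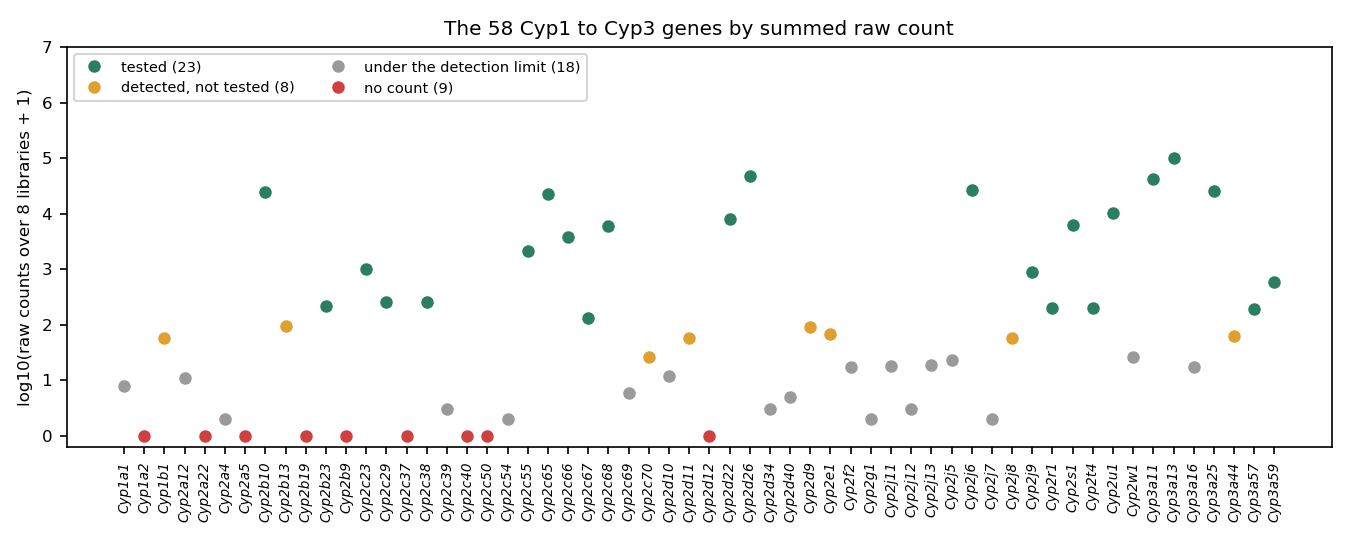
Summed raw counts of the 58 members over 8 libraries (vertical axis, log10 of the sum plus 1), ordered by symbol and coloured by detection class. The 23 tested members run from 130 to 99141 counts, while the 9 members in red have no count.

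Several members are near copies of each other, which limits how far reads can be assigned to one of them. The counts came from reads of 75 bases, so every run of 75 bases in a member's exons was compared with those of all other genes. At least 1 such run was shared with another gene for 16 of the 23 tested members, and over 10% of runs were shared for 7. Cyp2c67 shared 36.0% of its runs and Cyp2c68 28.5%. These 2 share runs with each other and with Cyp2c40 and Cyp2c69. Cyp2c65 and Cyp2c66 shared 11.4% and 13.6% of their runs, and Cyp3a25 and Cyp3a59 shared 10.8% each, so most of their runs were their own. The coding sequences of Cyp2c65 and Cyp2c66 were identical at 96.3% of 1470 positions, and those of Cyp3a25 and Cyp3a59 at 97.5% of 1509 positions. The longest coding stretch that each of these pairs has in common is shown to make the limit visible. A read from inside it fits both genes equally, and no base is in capitals because none differs. Both stretches cross from one coding exon into the next, so the genome coordinates include an intron.
Cyp2c65 and Cyp2c66: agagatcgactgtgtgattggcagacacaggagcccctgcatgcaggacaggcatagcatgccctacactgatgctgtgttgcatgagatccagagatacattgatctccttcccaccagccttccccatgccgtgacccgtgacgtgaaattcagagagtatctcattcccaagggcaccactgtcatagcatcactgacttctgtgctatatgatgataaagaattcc
Cyp3a25 and Cyp3a59: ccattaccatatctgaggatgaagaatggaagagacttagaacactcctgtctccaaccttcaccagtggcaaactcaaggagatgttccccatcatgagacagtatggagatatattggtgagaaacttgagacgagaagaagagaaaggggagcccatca

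The first stretch is 230 bases long and joins exons 7 and 8, at chr19:39087580-39090682 in Cyp2c65 and chr19:39176551-39183846 in Cyp2c66, both on the plus strand of GRCm38. The second is 162 bases long and joins exons 5 and 6, at chr5:145993283-145994947 on the minus strand in Cyp3a25 and chr5:146094378-146096330 on the plus strand in Cyp3a59. Values of the paralogs in these pairs, and of Cyp2c67 and Cyp2c68, are therefore reported as uncertain. So are Cyp2u1, Cyp2s1, Cyp2t4 and Cyp2c55, each of which overlaps a gene on the opposite strand. The strand setting of the counting is not given in the sources used here. Cyp2c29 is uncertain too, as 142 bases of its exons overlap the pseudogene Cyp2c53-ps on the same strand.

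Levels of different genes were compared as normalized counts per kilobase of exon (counts divided by the size factor of the library and by the merged exon length of the gene). On this scale the tested members spanned from 7.64 for Cyp2c67 to 3573 for Cyp3a13, as means over 8 libraries. Cyp3a13 and Cyp2d26 led, with ranges that overlapped, followed by a group of 5 genes (Cyp3a25, Cyp2c65, Cyp2b10, Cyp3a11 and Cyp2j6) whose ranges overlapped. The 12 highest members were the same when the longest coding transcript was used as the length, although Cyp3a11 then rose from rank 6 to rank 3.

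Of the Cyp3a enzymes, which oxidize a wide range of drugs and steroids, Cyp3a13 (chr5:137892932-137921619, GRCm38) was the most abundant, at 3629 ± 550.5 normalized counts per kilobase in floxed controls and 3516 ± 441 in Adipoq-F2-KO mice (SD, n = 4 each). Cyp3a25 followed, at 1415 ± 461 and 1253 ± 392. Cyp3a11 (chr5:145854426-145879964), an enzyme known as a strongly inducible PXR target, stood at 989 ± 538 and 776 ± 340 on the same scale. The remaining 2 tested Cyp3a genes were far lower, with Cyp3a59 at 36.0 ± 15.6 and 23.2 ± 4.24 and Cyp3a57 at 11.3 ± 4.59 and 10.7 ± 5.00. The nearly identical pair Cyp3a25 and Cyp3a59 thus differed widely in level within both genotypes, subject to the shared reads described above.

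Cyp2d26 (chr15:82790101-82794294) belongs to the subfamily of debrisoquine-type drug oxidases and reached 2935 ± 483 normalized counts per kilobase in floxed controls and 2761 ± 264 in Adipoq-F2-KO mice. Its relative Cyp2d22 stood at 227 ± 39.1 and 198 ± 13.2. Cyp2b10, the classical CAR target, had 1359 ± 519 and 995 ± 237, whereas Cyp2b23 had 11.1 ± 6.10 and 10.0 ± 2.35.

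Among Cyp2c genes, which include arachidonic acid epoxygenases and hydroxylases, Cyp2c65 was highest, at 1258 ± 261 normalized counts per kilobase in floxed controls and 1261 ± 243 in Adipoq-F2-KO mice. Cyp2c68 came next, at 380 ± 75.6 and 339 ± 44.2, before Cyp2c66, at 216 ± 136 and 196 ± 77.5, and Cyp2c55, at 117 ± 58.1 and 109 ± 43.3. The other 4 tested Cyp2c genes lay between 6.59 and 53.2 in the mean of either genotype. Cyp2j6, of a subfamily that epoxidizes arachidonic acid, stood at 901 ± 269 and 766 ± 230, and Cyp2j9 at 31.9 ± 13.7 and 30.2 ± 13.2. Cyp2u1, a fatty acid hydroxylase, had 199 ± 25.5 and 224 ± 34.6, and Cyp2s1, an enzyme of epithelia outside the liver, had 138 ± 13.9 and 139 ± 14.9. Cyp2r1, which hydroxylates vitamin D, was low at 11.6 ± 4.14 and 12.1 ± 6.66.

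**Figure D2:**
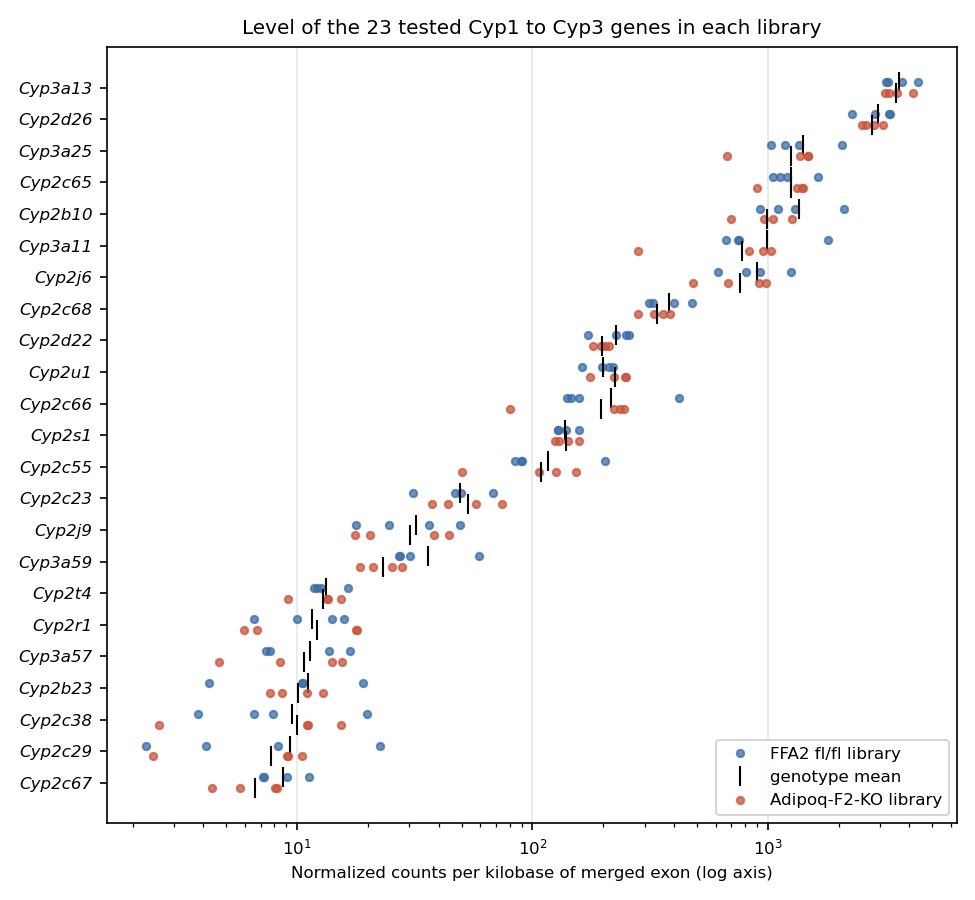
Level of the 23 tested members in each library, as normalized counts per kilobase of merged exon on a log axis, with FFA2 fl/fl libraries in blue, Adipoq-F2-KO libraries in red and a bar at each genotype mean. Members are ordered by level from Cyp3a13 to Cyp2c67, and the 2 genotypes overlap at every gene.

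A small number of genes made up most of the CYP transcripts. Summed over the 23 tested members, the level was 13954 ± 3112 normalized counts per kilobase in floxed controls and 12707 ± 1808 in Adipoq-F2-KO mice (SD, n = 4 each). The 7 highest members held 88.2% to 89.9% of this sum in every library. The sum uses merged exon length, which is 5093 bases for Cyp3a11 against 2344 for its longest coding transcript. With the latter length the share of Cyp3a11 and of the Cyp3a genes would be larger, but such shares were not computed. Cyp3a genes together held 43.5% ± 3.03 in floxed controls and 43.8% ± 2.97 in Adipoq-F2-KO mice, Cyp2d genes 22.998% ± 3.56 and 23.6% ± 3.74, and Cyp2c genes 14.6% ± 0.643 and 15.5% ± 1.28. The genotype means differed by less than 1 SD for Cyp3a and Cyp2d, and the libraries of the genotypes overlapped for all 3 subfamilies.

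Within this make-up, the share of Cyp3a11 was the most uneven among the 7. It was 9.68% in floxed library 1 and 5.38% to 6.34% in the other floxed libraries, and it was 2.81% in Adipoq-F2-KO library 2 and 6.22% to 7.41% in the other Adipoq-F2-KO libraries. Cyp2c65, in contrast, held 8.83% to 9.24% in floxed controls and 8.97% to 10.3% in Adipoq-F2-KO mice.

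**Figure D3:**
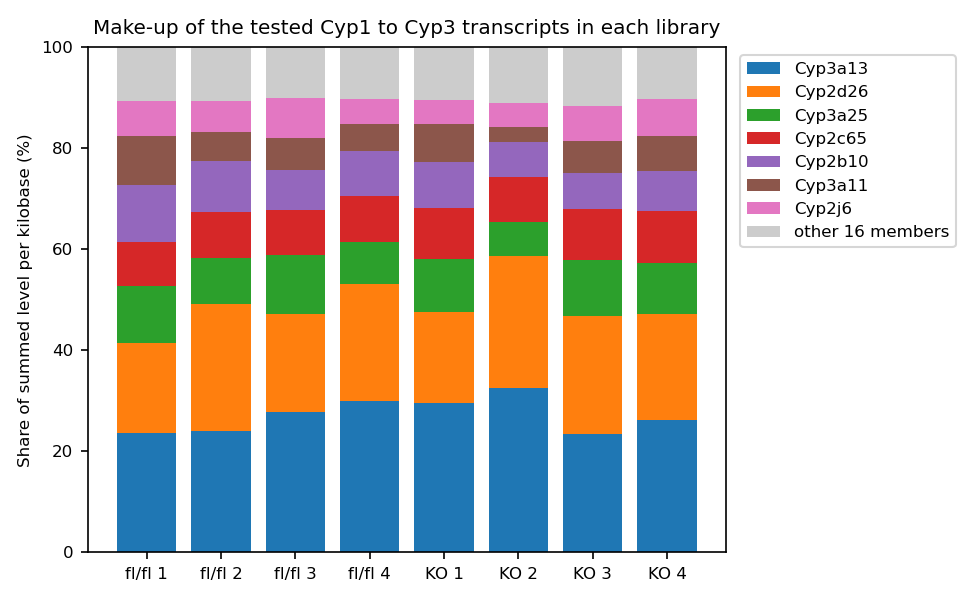
Share of each of the 7 highest members in the summed level per kilobase of the 23 tested members (vertical axis, percent), with the other 16 members in grey, for the 8 libraries. The Cyp3a11 segment is thickest in floxed library 1 (9.68%) and thinnest in Adipoq-F2-KO library 2 (2.81%).

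The main comparison asked whether loss of FFA2 in adipocytes went with a different level of these genes in the jejunum. Of the 23 tested members, 0 had an adjusted p below 0.05 in DESeq2, where 0.0375% of all 15986 tested genes did. At an unadjusted p below 0.05 the count was also 0 of 23, against 3.03% of all tested genes (1.65% higher and 1.38% lower in Adipoq-F2-KO mice), and edgeR and limma-voom likewise gave 0 members. At these shares a count of 0 among 23 genes is close to the background, and it does not show that the levels were equal. The libraries of the 2 genotypes overlapped at all 23 members, whereas 2.12% of all tested genes had genotypes that did not overlap. The log2 fold change, Adipoq-F2-KO over floxed controls, was below 0 for 17 members and above 0 for 6, with a median of −0.11 beside −0.01 over all tested genes. With TMM factors in DESeq2, 19 of the 23 were below 0, and with edgeR, which differs in model as well as scaling, 21 were. This direction rested on single libraries, since without floxed library 1 the median was 0.11 with 8 members below 0, and without Adipoq-F2-KO library 2 it was 0.01 with 11 below 0. Markers of other cell types also lay to one side. All 10 smooth muscle markers were below 0 (median −0.94), whereas all 8 macrophage markers (median 0.63) and all 6 tested B and plasma cell markers (median 0.91) were above 0. None of them passed after adjustment, and 1 macrophage marker passed at an unadjusted p below 0.05. Their sums overlapped between the genotypes, from 173 to 561 normalized counts in floxed controls and 392 to 735 in Adipoq-F2-KO mice for macrophages, and from 2648 to 16240 and 5498 to 11276 for B and plasma cells. With the smooth muscle score of each library as a covariate in DESeq2, the median of the members was −0.09 and 0 of 23 were called. The part of the macrophage and B and plasma cell markers in the members' direction was not tested.

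The smallest p belonged to Cyp3a59. Its normalized counts were 119, 54.8, 60.6 and 54.2 in floxed libraries 1 to 4 and 56.0, 37.2, 42.0 and 50.8 in Adipoq-F2-KO libraries 1 to 4. Floxed library 1 was far above the other 7, and among those the genotypes overlapped. This gave a log2 fold change of −0.65 ± 0.33 (SE; DESeq2, unadjusted p = 0.0538, adjusted p = 0.9998), which ran from −0.77 (without floxed library 2) to −0.27 (without floxed library 1) as 1 library was left out. The p of Cyp3a59 fell just under 0.05 before adjustment with TMM scaling (DESeq2, unadjusted p = 0.0499, adjusted p = 0.9987) and with at least 10 counts required in all libraries (DESeq2, unadjusted p = 0.0470, adjusted p = 0.9998). It also did so when floxed library 2, 3 or 4 or Adipoq-F2-KO library 1 was left out (DESeq2, unadjusted p from 0.0340 to 0.0475, lowest adjusted p = 0.592).

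Cyp2b10 had normalized counts of 4438, 2759, 1949 and 2331 in floxed controls and 2684, 1474, 2036 and 2215 in Adipoq-F2-KO mice. Again floxed library 1 was highest and Adipoq-F2-KO library 2 lowest. This gave a log2 fold change of −0.45 ± 0.26 (SE; DESeq2, unadjusted p = 0.0781, adjusted p = 0.9998), with a 95% interval from −0.95 to 0.05. Leaving out 1 library gave −0.16 without floxed library 1, but −0.60 without floxed library 3, −0.54 without floxed library 4 and −0.59 without Adipoq-F2-KO library 1 (DESeq2, unadjusted p = 0.0116, 0.0490 and 0.0278 for the last 3, lowest adjusted p = 0.381).

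Cyp3a11 had the widest range of the 12 most abundant members. Its normalized counts were 9141, 3827, 3791 and 3398 in floxed controls and 5271, 1437, 4224 and 4867 in Adipoq-F2-KO mice. The highest and the lowest value stood apart from the other 6, which lay between 3398 and 5271. The fitted log2 fold change of −0.35 ± 0.50 (SE; DESeq2, adjusted p = 0.9998) became 0.11 without floxed library 1 and −0.07 without Adipoq-F2-KO library 2. Its interval, from −1.33 to 0.63, reached past a 2-fold fall.

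Cyp2c66, an intestinal relative of the arachidonic acid hydroxylases, had normalized counts of 817, 308, 272 and 283 in floxed controls and 459, 157, 477 and 432 in Adipoq-F2-KO mice. The same 2 libraries were at the ends. Its log2 fold change of −0.14 ± 0.52 (SE; DESeq2, adjusted p = 0.9998) became 0.40 without floxed library 1 and 0.11 without Adipoq-F2-KO library 2. Cyp2c65, its near copy, had 3156, 2339, 2031 and 2176 against 2719, 1734, 2575 and 2694 normalized counts, and its genotype means were almost the same (2425 ± 503 and 2430 ± 468, SD, n = 4 each). Cyp3a25 followed the same pattern of libraries, at 4325, 2474, 2838 and 2153 in floxed controls and 3087, 1396, 3089 and 2869 in Adipoq-F2-KO mice, with a log2 fold change of −0.18 and an interval from −0.71 to 0.36.

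Among the abundant members, Cyp3a13, Cyp2s1 and Cyp2d26 varied little. Cyp3a13 had normalized counts of 12910, 9360, 9621 and 11024 in floxed controls and 12209, 9663, 9268 and 10430 in Adipoq-F2-KO mice. The highest library was 1.39 times the lowest, and the log2 fold change was −0.05 with an interval from −0.32 to 0.23. Cyp2s1 was steadier still, with 779, 635, 684 and 632 against 701, 614, 781 and 643 normalized counts, a ratio of 1.27 between highest and lowest library and an interval of the log2 fold change from −0.24 to 0.25. For Cyp2d26 the counts were 5941, 5887, 4088 and 5124 against 4487, 4678, 5558 and 5069, and the interval ran from −0.37 to 0.18. Its log2 fold change of −0.09 ran from −0.19 (without floxed library 3) to −0.026 (without floxed library 1) as 1 library was left out, and it was −0.31 without the 3 shallow libraries.

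Cyp2j6 had 4524, 2908, 3348 and 2212 normalized counts in floxed controls and 2443, 1739, 3324 and 3538 in Adipoq-F2-KO mice, with a log2 fold change of −0.24 ± 0.25 (SE), which was −0.032 without floxed library 1, −0.067 without Adipoq-F2-KO library 2 and −0.62 without the 3 shallow libraries. Cyp2d22 had 980, 1008, 671 and 885 against 764, 826, 793 and 705, and the floxed controls held both the highest and the lowest value. Its log2 fold change was −0.20 ± 0.14 (SE), with the third smallest p among members, and it was −0.31 without floxed library 3 and −0.14 without floxed library 2. Cyp2u1 was one of the few members with a higher mean in Adipoq-F2-KO mice. It had 1036, 1114, 855 and 1158 normalized counts in floxed controls against 920, 1297, 1313 and 1168, a log2 fold change of 0.17 ± 0.15 (SE), which was 0.089 without floxed library 3, 0.27 without Adipoq-F2-KO library 1 and 0.0053 without the 3 shallow libraries.

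Of the genes that share many runs with other Cyp2c genes, Cyp2c68 had 823, 690, 542 and 563 normalized counts in floxed controls and 662, 485, 621 and 568 in Adipoq-F2-KO mice, a log2 fold change of −0.17 ± 0.17 (SE) that was −0.042 without floxed library 1 and −0.090 without Adipoq-F2-KO library 2. The weakest tested member, Cyp2c67, had 15.8, 19.5, 12.5 and 12.4 against 14.2, 9.92, 14.01 and 7.52, a log2 fold change of −0.42 ± 0.45 (SE) that ran from −0.57 (without Adipoq-F2-KO library 1) to −0.26 (without floxed library 2) as 1 library was left out. For the other 9 tested members, which were neither among the 12 highest nor among the 8 with the smallest p, the log2 fold changes ran from −0.31 (Cyp2c29) to 0.07 (Cyp2c23). Over all 23, the 95% interval lay within a 2-fold change in both directions for 15 members, reached past 2-fold lower for 8 and past 2-fold higher for 2.

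**Figure D4:**
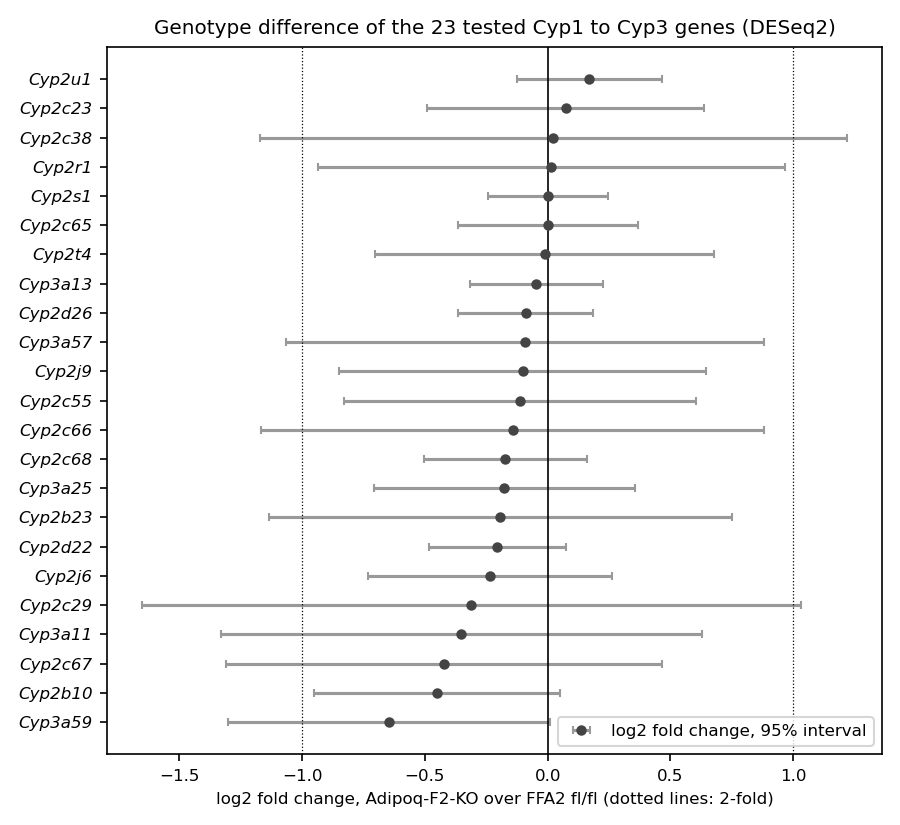
Log2 fold change of the 23 tested members, Adipoq-F2-KO over FFA2 fl/fl (points, DESeq2), with 95% intervals (bars) and dotted lines at 2-fold. All intervals include 0, from Cyp3a59 at −0.65 to Cyp2u1 at 0.17.

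The members differed more between mice of a genotype than most genes did. The coefficient of variation within a genotype, averaged over both, had a median of 30.9% over the 23 tested members and of 18.7% over all tested genes. With genes restricted to a mean of at least 100 normalized counts, the medians were 29.97% over 15 members and 12.4% over 8146 genes. The highest library exceeded the lowest by a median factor of 2.78 for members and 1.78 for all tested genes in which no library was at 0. These spreads are descriptions without a test, as members share their libraries.

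The same libraries stood at the ends for most members, a pattern noticed after the values were seen. Floxed library 1 was the highest of the 8 at 16 of 23 members, where it was the highest at 12.3% of all tested genes. Adipoq-F2-KO library 2 was the lowest at 13 of 23 members, against 11.5% of all tested genes. Measured as log2 of the normalized count plus 1 relative to the mean of each gene, the members had a median of 0.65 in floxed library 1 and −0.58 in Adipoq-F2-KO library 2, while the other 6 libraries lay between −0.14 and 0.20. The median over all tested genes was 0.01 in each library. The deviation in floxed library 1 was above 0 for 21 of 23 members, and the one in Adipoq-F2-KO library 2 was above 0 for 3.

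Which members took part did not follow subfamily alone. Cyp3a11, Cyp3a25, Cyp3a57 and Cyp3a59 were highest in floxed library 1 and lowest in Adipoq-F2-KO library 2, but Cyp3a13, also highest in floxed library 1, was lowest in Adipoq-F2-KO library 3. Cyp2u1, Cyp2s1, Cyp2c23 and Cyp2r1 were highest in Adipoq-F2-KO library 3, and Cyp2d22 and Cyp2c67 in floxed library 2. Both libraries at the ends were deep (19081631 and 18155475 counts). Their villus enterocyte marker sums were 999107 and 968122 normalized counts, and their smooth muscle marker sums were 287 and 3680. Their sums of proximal small intestine markers were 87619 and 61807, against 64303 to 92694 in the other libraries. For distal small intestine markers the sums were 36721 and 44946, against 40997 to 63285 in the other libraries. The part of these values in the pattern was not tested.

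**Figure D5:**
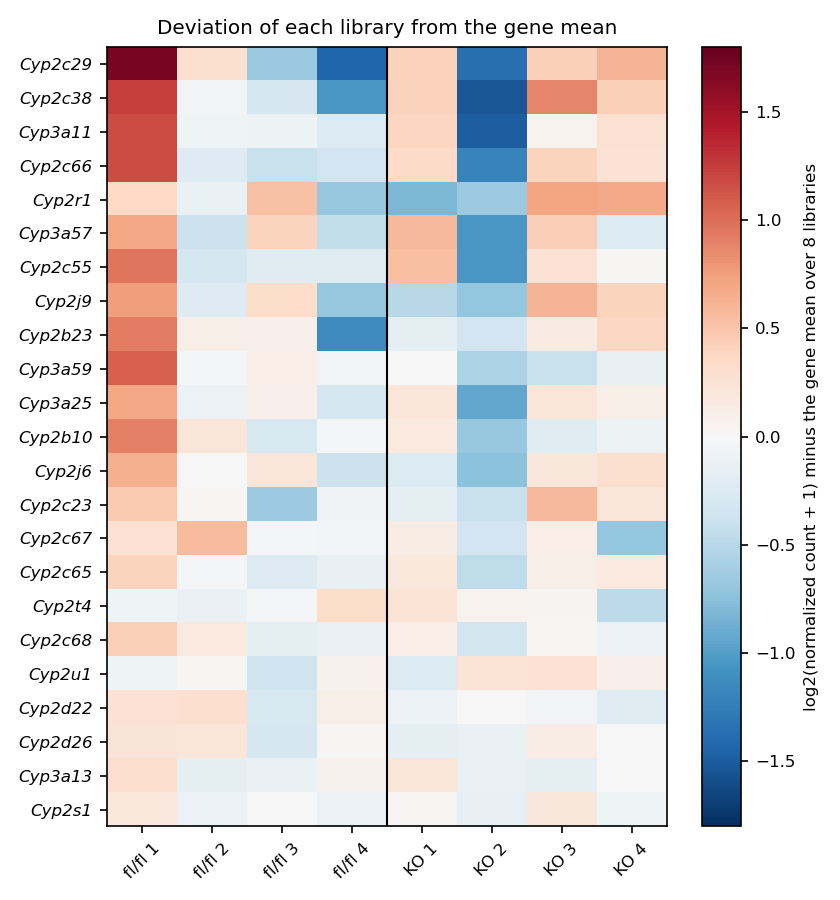
Deviation of each library from the mean of the gene over 8 libraries, as log2 of the normalized count plus 1, for the 23 tested members ordered by the size of their variation (top, most variable). The first column (floxed library 1) is red for 21 members and the column of Adipoq-F2-KO library 2 is blue for 20, and colours fade towards Cyp2s1 at the bottom.

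Sequence before the RefSeq start was set beside this difference in spread. Promoter sequence, here the 250 bases before the RefSeq start on GRCm38.p6, was at hand for 50 of the 58 members and 20 of the 23 tested ones. The promoters of Cyp3a11 and Cyp2c66, the most variable of the members described with single libraries (highest library 6.36 and 5.21 times the lowest), are shown with those of Cyp2s1 and Cyp3a13, the least variable. Each is written 5′ to 3′ in the direction of transcription. Capitals mark matches on either strand to 6 patterns, which were 2 nuclear receptor half-sites (AGGTCA and AGTTCA), the Ahr core GCGTG, the D-box TTANGTAA of clock output factors, the HNF1 half-site GTTAAT and the letters TATAAA.
Cyp3a11: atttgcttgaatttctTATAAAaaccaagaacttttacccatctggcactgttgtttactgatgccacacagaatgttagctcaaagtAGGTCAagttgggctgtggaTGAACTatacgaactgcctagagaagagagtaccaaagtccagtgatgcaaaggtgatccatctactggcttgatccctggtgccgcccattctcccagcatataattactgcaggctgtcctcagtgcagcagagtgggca
Cyp2c66: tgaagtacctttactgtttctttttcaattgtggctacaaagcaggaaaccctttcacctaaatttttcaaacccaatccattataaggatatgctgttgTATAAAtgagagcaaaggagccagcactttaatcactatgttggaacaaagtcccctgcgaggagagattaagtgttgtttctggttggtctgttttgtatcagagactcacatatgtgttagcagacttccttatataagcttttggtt
Cyp2s1: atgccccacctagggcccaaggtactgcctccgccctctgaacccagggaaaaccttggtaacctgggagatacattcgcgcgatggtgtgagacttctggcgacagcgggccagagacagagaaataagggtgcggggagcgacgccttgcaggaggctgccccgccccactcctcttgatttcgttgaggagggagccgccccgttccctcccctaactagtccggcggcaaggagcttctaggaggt
Cyp3a13: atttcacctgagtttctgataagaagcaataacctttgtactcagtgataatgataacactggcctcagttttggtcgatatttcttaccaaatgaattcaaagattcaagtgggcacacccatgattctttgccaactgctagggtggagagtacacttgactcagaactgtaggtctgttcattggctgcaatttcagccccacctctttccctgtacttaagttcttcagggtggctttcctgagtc

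These windows are chr5:145879855-145880104 (minus strand), chr19:39113648-39113897 (plus strand), chr7:25816526-25816775 (minus strand) and chr5:137921620-137921869 (minus strand). The start in GENCODE M21, used for the gene coordinates, lies upstream of the RefSeq start for Cyp2s1 and Cyp3a11, so that all 250 bases of the Cyp2s1 window and 110 of those of Cyp3a11 fall inside the M21 gene. The Cyp3a11 window holds AGGTCA on the printed strand, beginning 162 bases before the start, and AGTTCA on the opposite strand at 142 bases. It also holds TATAAA at 234 bases and the Cyp2c66 window holds it at 150 bases, both farther upstream than a TATA box usually lies. No pattern was found in the Cyp2s1 and Cyp3a13 windows. Among the 20 tested members, AGGTCA was found in 7 (Cyp2b23, Cyp2c29, Cyp2t4, Cyp3a11, Cyp3a25, Cyp3a57 and Cyp3a59) and in 13.8% of 27025 promoters of all genes. TATAAA was found in 8 and in 13% of all promoters, GCGTG in 3 (Cyp2b10, Cyp2c68 and Cyp2j9) and 28.2%, GTTAAT in 2 (Cyp2c68 and Cyp2d26) and 6.52%, TTANGTAA in 1 (Cyp2c38) and 2.11%, and AGTTCA in 1 (Cyp3a11) and 11.9%. These matches are descriptions of short windows and not binding sites.

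Genes that work with the CYP enzymes were read from the same DESeq2 fit, where none of the lists had a gene with an adjusted p below 0.05. Of 7 electron transfer partners, 0 passed at an unadjusted p below 0.05. The reductase Por stood at 6745 ± 1646 normalized counts in floxed controls and 6072 ± 683 in Adipoq-F2-KO mice (SD, n = 4 each), and Cyb5a, the cytochrome b5 gene with the smallest p of this list, at 2953 ± 451 and 2585 ± 395. Of 13 heme synthesis and breakdown genes, 0 passed as well. Uros, a heme synthesis enzyme, came closest, with a log2 fold change of −0.43 (DESeq2, unadjusted p = 0.100). Alas1, the first enzyme of heme synthesis, had 1387 ± 235 and 1293 ± 141 normalized counts.

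Of 17 tested receptors and their partner factors, 1 was higher and 2 were lower at an unadjusted p below 0.05, where 1.65% of all tested genes were higher and 1.38% lower. Nr1i2, which encodes PXR, had 2672, 2164, 1750 and 2323 normalized counts in floxed controls and 1991, 1856, 1690 and 1506 in Adipoq-F2-KO mice. The genotypes overlapped, and the log2 fold change was −0.34 (DESeq2, unadjusted p = 0.0237, adjusted p = 0.9998). Nr1h3, the oxysterol receptor LXR alpha, had a log2 fold change of −0.28 (DESeq2, unadjusted p = 0.0234), and Hnf4g, an enterocyte transcription factor, one of 0.43 (DESeq2, unadjusted p = 0.0422). Without floxed library 1, 0 receptors passed in the lower direction, and without Adipoq-F2-KO library 2, 2 did. In the higher direction 0 passed without Adipoq-F2-KO library 2 or by edgeR, so that Hnf4g no longer passed. Nr1i3, which encodes CAR, had 305 ± 101 and 280 ± 36.0 normalized counts.

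Of 9 tested PXR and CAR targets outside the CYP families, all had a log2 fold change below 0, with a median of −0.24 (all 9 also by edgeR and under TMM scaling), and 1 passed at unadjusted p, beside 1.38% of all tested genes. Under TMM scaling 2 passed, and by edgeR 0 did. The gene that passed in the main fit was Gstm1, a glutathione transferase, with a log2 fold change of −0.60 (DESeq2, unadjusted p = 0.0354, adjusted p = 0.9998). It had 1081, 538, 376 and 515 normalized counts in floxed controls and 494, 332, 422 and 408 in Adipoq-F2-KO mice. Floxed library 1 was again the highest and Adipoq-F2-KO library 2 the lowest. Without floxed library 1 the list had 6 genes below 0 and 3 above, and without Adipoq-F2-KO library 2 it again had all 9 below 0 (median −0.16), and 0 passed in either case.

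The 4 tested genes of the Ahr battery outside the CYP families were all below 0, with a median of −0.27, and 0 passed. Leaving out floxed library 1 gave a median of −0.13, and leaving out Adipoq-F2-KO library 2 gave −0.18, with all 4 below 0 both times. Nqo1, a quinone reductase, had the smallest p of these, with a log2 fold change of −0.30 (DESeq2, unadjusted p = 0.274). Of 6 tested eicosanoid partners, which release or process arachidonic acid, 0 passed, and Pla2g4a, a phospholipase, came closest at 0.37 (DESeq2, unadjusted p = 0.315).

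Because several CYP genes are known to cycle with the time of day through the PAR bZip factors Dbp, Tef and Hlf, clock genes were read as well. Of 9 tested evening-phase and output genes, 2 were lower at an unadjusted p below 0.05, against 1.38% of all tested genes. They were Per2, a core clock repressor, with a log2 fold change of −0.72 (DESeq2, unadjusted p = 0.00116, adjusted p = 0.602), and Hlf, at −0.72 (DESeq2, unadjusted p = 0.0108, adjusted p = 0.9998). Per2 had 1562, 1842, 981 and 2121 normalized counts in floxed controls and 923, 890, 1253 and 882 in Adipoq-F2-KO mice. Hlf had 425, 506, 278 and 509 against 238, 171, 424 and 222. Of these 9 genes, 3 were above 0 and 6 below (median −0.21). Without floxed library 1, without Adipoq-F2-KO library 2, by edgeR and under TMM scaling, 2 were lower at unadjusted p each time. In that order, 0.863%, 1.66%, 1.86% and 1.56% of all tested genes were lower. The median was −0.04 without floxed library 1. Of 5 tested morning-phase genes, 0 passed, and Nfil3, a repressor that binds the same sites as the PAR bZip factors, had the smallest p at a log2 fold change of 0.39 (DESeq2, unadjusted p = 0.208). The part of sampling time in the CYP values was not tested.

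P450 genes outside the member rule were read as well, mostly of other families but including Cyp2ab1, which had no count. Of these, 12 of 36 were tested, and 1 was lower at unadjusted p, against 1.38% of all tested genes. Cyp4b1, a fatty acid and foreign compound hydroxylase, had 1392, 1424, 1263 and 1260 normalized counts in floxed controls and 1173, 998, 1033 and 1171 in Adipoq-F2-KO mice, so that all Adipoq-F2-KO libraries lay below all floxed ones, as genotypes did not overlap at 2.12% of all tested genes. Its log2 fold change was −0.29 (DESeq2, unadjusted p = 0.00415, adjusted p = 0.993). The median over the 12 was −0.08, and −0.15 without Adipoq-F2-KO library 2, where 1 gene passed in each direction at unadjusted p.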

How the data were processed

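The study measured poly-A RNA of jejunal mucosa in 4 FFA2 fl/fl and 4 Adipoq-F2-KO mice, grouped by the genotype in the sample labels. The authors ran Trimmomatic, STAR and featureCounts, and the deposited values are the resulting raw counts per Ensembl gene of each library. The submitters' processing notes name GRCm38 and mm10; tool versions, annotation release, strand setting and the treatment of reads that fit several genes are not given in the sources used here, so reads in runs shared by members may have been dropped or counted. Symbols, exon lengths and overlaps came from GENCODE M21, in which 4907 identifiers (0.716% of counts) had no symbol, so a later gene set may change lengths and overlaps.

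All 15986 genes that reached 10 counts in 4 or more libraries (of 32652 with a count) were fitted with DESeq2 1.42.0 in R 4.3.3, genotype as the only term, two-sided Wald tests and Benjamini-Hochberg adjustment over all tested genes. DESeq2 was used because the authors used it. Intervals are 95% Wald intervals. Alternatives were edgeR 4.0.16 (quasi-likelihood), limma 3.58.1 (voom), TMM scaling, 2 count minimums, a replicate block, a smooth muscle score as covariate and leaving out libraries. On simulated counts DESeq2 gave more false calls than its threshold implies, whereas edgeR and limma stayed near it. No limit on false calls was kept for DESeq2 after this was seen, and no member was called.

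Members described library by library were the 12 with the highest level per kilobase and the 8 with the smallest p (14 in all). From each list up to 5 genes with unadjusted p below 0.05 were named, or else the gene with the smallest p, beside Ffar2, Por, Alas1, Ahr, Nr1i3 and Alb. Members and lists were chosen with earlier results of these data known. The length scale, the promoters and shared stretches shown, the counts of highest and lowest libraries, the direction counts without single libraries and the shares of all genes under each alternative were chosen after seeing the data.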

Additional observations from a re-analysis of the deposited data

Results flagged for a closer look

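In each genotype, the highest or the lowest library of each tested member was compared with the others by its gap to the nearest library divided by the range of the 4 libraries (Dixon's ratio). Of 46 groups, 7 passed the 95% critical value, and chance flags about 1 group in 20. In 4 of them floxed library 1 stood above the other floxed controls, with ratios of 0.949 for Cyp2c55, 0.934 for Cyp2c66, 0.925 for Cyp3a11 and 0.900 for Cyp3a59. In the other 3, Adipoq-F2-KO library 2 stood below the other Adipoq-F2-KO libraries, with ratios of 0.870 for Cyp3a25, 0.862 for Cyp2c66 and 0.854 for Cyp2c65. The flags share their libraries and near-identical genes and are not independent of each other.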

How the results depend on the processing

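With 4 mice per genotype, the interval of 8 of the 23 tested members reached past a 2-fold fall, and reads from the runs that Cyp2c65, Cyp2c66, Cyp2c67, Cyp2c68, Cyp3a25 and Cyp3a59 share with other genes cannot be told apart. The count of members with an adjusted p below 0.05 was 0 under all 16 alternatives, and the smallest adjusted p of a member described by library was 0.244 (Cyp2d22, DESeq2 without floxed library 3). No member was higher at an unadjusted p below 0.05 in any of them. Lower at unadjusted p were 1 member with TMM factors in DESeq2, 1 with at least 10 counts in all 8 libraries, 1 with the replicate block, 3 without the 3 shallow libraries, and 0 to 3 when 1 library was left out. The share of all tested genes lower at unadjusted p was 1.56%, 1.73%, 1.10% and 2.85% in the first 4 of these, and 0.838% to 3.77% when 1 library was left out. These passes came from Cyp3a59, Cyp2b10, Cyp2d22, Cyp2d26 and Cyp2j6. The replicate numbers follow the sample titles and were not taken as pairs. Correlations of same-numbered libraries were 0.54, 0.29, 0.01 and −0.42, which cannot show whether the mice were paired. Under the replicate block, 11 of all tested genes passed after adjustment in DESeq2, against 6 without it, and the member that passed before adjustment was Cyp2b10 (DESeq2, unadjusted p = 0.0271, adjusted p = 0.99999).

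The median log2 fold change of the members, −0.11, was −0.22 with limma-voom, −0.42 without the 3 shallow libraries, and ran from −0.25 to 0.11 when 1 library was left out, with reversals without floxed library 1 (0.11) and without Adipoq-F2-KO library 2 (0.0061). Over all tested genes the count of 6 became 2 with edgeR, 1 with limma-voom, 3 without a count minimum, 11 with the replicate block, 78 without the 3 shallow libraries and 2 to 103 when 1 library was left out. The 103 came without floxed library 3. The cause was not tested. Of the 14 members described by library, 8 kept their direction in every alternative that could be fitted. Leaving out 1 library moved the log2 fold change through 0 for Cyp3a13 (−0.13 to 0.056), Cyp3a25 (−0.30 to 0.069), Cyp3a11 (−0.52 to 0.11), Cyp2c66 (−0.30 to 0.40), Cyp2c65 (−0.074 to 0.15) and Cyp2s1 (−0.063 to 0.075). Both Cyp2c65 (0.00086) and Cyp2s1 (0.0011) lay near 0 from the start. For Cyp2c65 the value was −0.0088 with edgeR, −0.021 with limma-voom, −0.0085 with TMM factors in DESeq2, −0.0029 without a count minimum, −0.0014 with the stricter minimum, −0.0016 with the replicate block and −0.20 without the 3 shallow libraries. In the same order it was −0.0053, −0.013, −0.0079, −0.0014, −0.00070, −0.0018 and −0.057 for Cyp2s1. The stricter minimum could not give a value for Cyp2c67. Adipoq-F2-KO library 2 was the highest at 0 members, so leaving it out could not change the 16 members highest in floxed library 1. Floxed library 1 was the lowest at 0 members, so leaving it out could not change the 13 lowest in Adipoq-F2-KO library 2. These comparisons, chosen after seeing the data, therefore do not check the pattern.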
